A study of Mus musculus with 17 samples.

Results

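The miR-200 family is a set of microRNAs (miRNAs, short RNAs that repress messenger RNAs) characteristic of epithelial cells. Its rows were taken by name as every row for miR-200a, miR-200b, miR-200c, miR-141 or miR-429, on either arm of the hairpin, in a small RNA sequencing table of mouse embryonic stem cell (ESC) lines. This gave 9 of 1033 miRNA rows: the 3p arms mmu-miR-429-3p, mmu-miR-141-3p, mmu-miR-200a-3p, mmu-miR-200c-3p and mmu-miR-200b-3p and 4 5p arms. The species prefix is left out from here on. Of the 9 rows, 5 come from the miR-200b-200a-429 cluster and 4 from the miR-200c-141 cluster, and the table holds no row for miR-429-5p. The study followed the ESC lines D3 and B8 as they differentiated. The groups used here were D3 at day 0 (3 libraries), day 7 (2 libraries, replicates 2 and 3) and day 21 (3 libraries), and B8 at day 7 and day 0 (3 libraries each). At day 0 the cells were undifferentiated, kept without feeder cells in medium with 15% fetal bovine serum and LIF, the cytokine that holds ESCs in that state. At day 7 they were embryoid bodies, aggregates made in hanging drops, and at day 21 outgrowths of those bodies, both in medium that lacked LIF and held retinoic acid (RA), insulin, transferrin and selenium (ITS) and the N2 supplement. A single line stands on each side of the comparison of D3 and B8, so the line cannot be told apart from other differences between these cultures. Embryoid bodies and outgrowths are mixtures of cells, in which fewer cells of a type and less of a miRNA per cell cannot be told apart.

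The family is known for holding cells in an epithelial state. Its members bind the messenger RNAs of Zeb1 and Zeb2, transcription factors that repress E-cadherin, and these factors in turn repress both miR-200 clusters. The family is lost when epithelial cells become mesenchymal, and ESCs, which grow as E-cadherin-positive colonies, express it. A miRNA chooses its targets mainly through its seed, bases 2 to 8 from the 5′ end, and the 3p arms are the family's main products.

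The 5 mature 3p arms are shown because they split by seed in a way that crosses the split by cluster. Capitals mark the seed, and the sequences are those of RefSeq on GRCm38.p6.
miR-429-3p: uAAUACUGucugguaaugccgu
miR-200b-3p: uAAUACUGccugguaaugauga
miR-200c-3p: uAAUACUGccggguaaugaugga
miR-200a-3p: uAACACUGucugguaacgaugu
miR-141-3p: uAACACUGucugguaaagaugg
The seed of miR-429-3p, miR-200b-3p and miR-200c-3p differs from that of miR-200a-3p and miR-141-3p by a single base, U4C, counted from the 5′ end of the mature miRNA. No other RefSeq mouse miRNA and no other row of the table that RefSeq names carries either seed. The closest pair is miR-200a-3p and miR-141-3p, which differ at 2 of 22 bases (C17A and U22G from miR-200a-3p to miR-141-3p) although they come from different chromosomes. Across the first 22 bases miR-200b-3p and miR-200c-3p also differ at 2 positions (U11G and A22G from miR-200b-3p to miR-200c-3p), and miR-200c-3p is 1 base longer. How reads that match several miRNAs were counted is not given in the sources used here, so the split of reads within these close pairs is uncertain. The less abundant 5p arms come from the opposite side of each hairpin and carry other seeds, for example the arm that partners miR-141-3p.
miR-141-5p: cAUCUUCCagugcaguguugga

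The clusters lie on different chromosomes. On GRCm38 the hairpins of miR-429 (chr4:156053905-156053987), miR-200a (chr4:156054896-156054985) and miR-200b (chr4:156055681-156055750) sit on the minus strand within 1846 bases, in introns of the protein-coding gene Ttll10 on the same strand. The miR-429 hairpin also overlaps an exon of the processed transcript Gm13648. The hairpins of miR-141 (chr6:124717914-124717985) and miR-200c (chr6:124718322-124718390) sit on the minus strand within 477 bases, in introns of Gm15884, a transcript annotated as antisense, between Phb2 and Ptpn6. The miR-141 hairpin overlaps an exon of Gm29008, an unconfirmed transcript. Each cluster therefore holds both seeds: miR-429, miR-200b and miR-200a on chromosome 4, and miR-200c and miR-141 on chromosome 6.

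Levels are given as normalised values, the deposited values divided by a median-of-ratios factor per library, because deposited column totals differed 17.7-fold between libraries. Libraries held 56377 to 129486 miRNA reads in D3 at day 0, 1008438 to 1060306 at day 7 and 547213 to 743039 at day 21. The B8 libraries held 141823 to 256613 such reads at day 7 and 138397 to 275271 at day 0. On the normalised scale 3 reads, taken as the floor of a library, were worth 3.87, 0.889 and 0.672 on average in D3 at days 0, 7 and 21, and 2.98 and 1.90 in B8 at days 7 and 0. The day 0 libraries of D3 are thus the shallowest, and values of the rarest members there rest on a few reads. The miRNAs of the miR-290 and miR-302 clusters, taken here as ESC markers, summed to 25692.7, 2120 and 2037 in D3 at days 0, 7 and 21, and to 16051 in B8 at day 7 and 36199 at day 0. Libraries of both lines at day 0 were thus highest in the sum of these ESC markers. Whether the replicates come from separate cultures is not in the labels, and every p-value therefore measures a spread between samples that may be only technical.

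miR-429-3p was the most abundant member in all 5 groups, and miR-141-3p and miR-200a-3p came next in each. In the 3 D3 libraries of day 0, miR-429-3p measured 118, 127 and 122, and in those of day 7 it measured 62.8 and 79.2. At day 21 it measured 111, 135 and 159 in D3. In B8 it measured 202, 219 and 203 at day 7, against 187, 218 and 191 at day 0. All 6 B8 libraries lay above all 8 D3 libraries, and within D3 both day 7 libraries lay below the other 6. miR-429-3p ranked 83 to 90 among the 1033 rows in D3 at day 0, 131 to 142 at day 7 and 95 to 110 at day 21, against 71 to 76 in B8 at day 7 and 73 to 77 at day 0.

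miR-200a-3p, which carries the other seed but shares the cluster of miR-429, measured 31.7, 39.6 and 42.7 in D3 at day 0. It measured 11.7 and 10.8 at day 7 and 16.5, 27.2 and 27.0 at day 21. In B8 it measured 34.0, 38.9 and 24.7 at day 7, against 83.0, 72.9 and 90.1 at day 0. The B8 day 0 libraries stood above every other library, whereas B8 at day 7 overlapped D3 at day 0 and at day 21. miR-141-3p, with the same seed from the other cluster, measured 31.7, 59.0 and 46.7 in D3 at day 0, 10.5 and 15.0 at day 7, and 21.5, 30.7 and 34.4 at day 21. In B8 it measured 37.9, 34.9 and 30.8 at day 7, against 116, 118 and 96.2 at day 0. The order of the groups was the same for miR-141-3p as for miR-200a-3p, with B8 day 0 highest and D3 day 7 lowest, and for miR-141-3p the ranges of B8 day 7, D3 day 0 and D3 day 21 overlapped.

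miR-200c-3p had another order. It measured 13.4, 14.1 and 8.13 in D3 at day 0, 4.33 and 3.12 at day 7, and 6.49, 7.63 and 7.25 at day 21. In B8 it measured 21.6, 34.9 and 26.2 at day 7, against 17.5, 19.8 and 11.3 at day 0. Its highest group was B8 at day 7, where all 3 libraries lay above all others, and B8 day 0 overlapped D3 day 0. These values rest on few reads, from 4 in 1 D3 day 0 library to 52 in 1 B8 day 7 library.

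miR-200b-3p was the least abundant 3p arm in D3 at every day and in B8 at day 7, but not in B8 at day 0. It measured 5.76, 4.40 and 4.06 in D3 at day 0, 3.09 and 2.55 at day 7, and 5.74, 6.07 and 6.34 at day 21. In B8 it measured 7.73, 8.72 and 4.62 at day 7, against 20.0, 18.2 and 19.1 at day 0. The 3 B8 day 0 libraries were apart from the other 11. In B8 at day 0 its mean of 19.1 ± 0.877 was above the 16.2 ± 4.43 of miR-200c-3p (SD, n = 3 each), with overlapping ranges.

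Of the 5p arms, miR-200a-5p was the most abundant, with means of 13.9 ± 1.47, 6.36 ± 0.244 and 9.18 ± 0.495 in D3 at days 0, 7 and 21, and of 15.1 ± 3.99 in B8 at day 7 and 22.0 ± 6.70 at day 0 (SD, n = 3, and 2 for D3 day 7). miR-141-5p was at 5.76, 6.17 and 6.10 in D3 at day 0, at 0 and 1.14 at day 7 and at 0.499, 0.587 and 0.906 at day 21, against 2.32, 2.01 and 4.62 in B8 at day 7 and 3.50, 6.97 and 5.20 at day 0. This arm rests on 64 reads in all, and the 0 in D3 day 7 replicate 2 allows a value of up to 0.927. miR-200b-5p rests on 51 reads and ran from 0 to 5.20, with the 0 again in D3 day 7 replicate 2, beside 2.55 in replicate 3. miR-200c-5p had 1 read in each D3 day 21 library and 0 in the other 11, which allows up to 6.10 in the shallowest of these libraries, and it was the only member below the filter on low values. The 3p arm made up 72.3%, 63.9% and 72.3% of the miR-200a reads in D3 at days 0, 7 and 21, against 70.7% in B8 at day 7 and 77.8% at day 0. Their exact 95% binomial intervals overlapped between D3 days and between B8 days, the widest being 54.6 to 72.5% for D3 at day 7, and intervals cover counting error only. For miR-141 the 3p share was 88.5% (82.0 to 93.3%), 95.6% and 97.8% (95.8 to 99.0%) in D3 at days 0, 7 and 21, and 93.1% in B8 at day 7 and 95.6% at day 0, so in D3 the day 0 and day 21 intervals did not overlap.

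**Figure D1:**
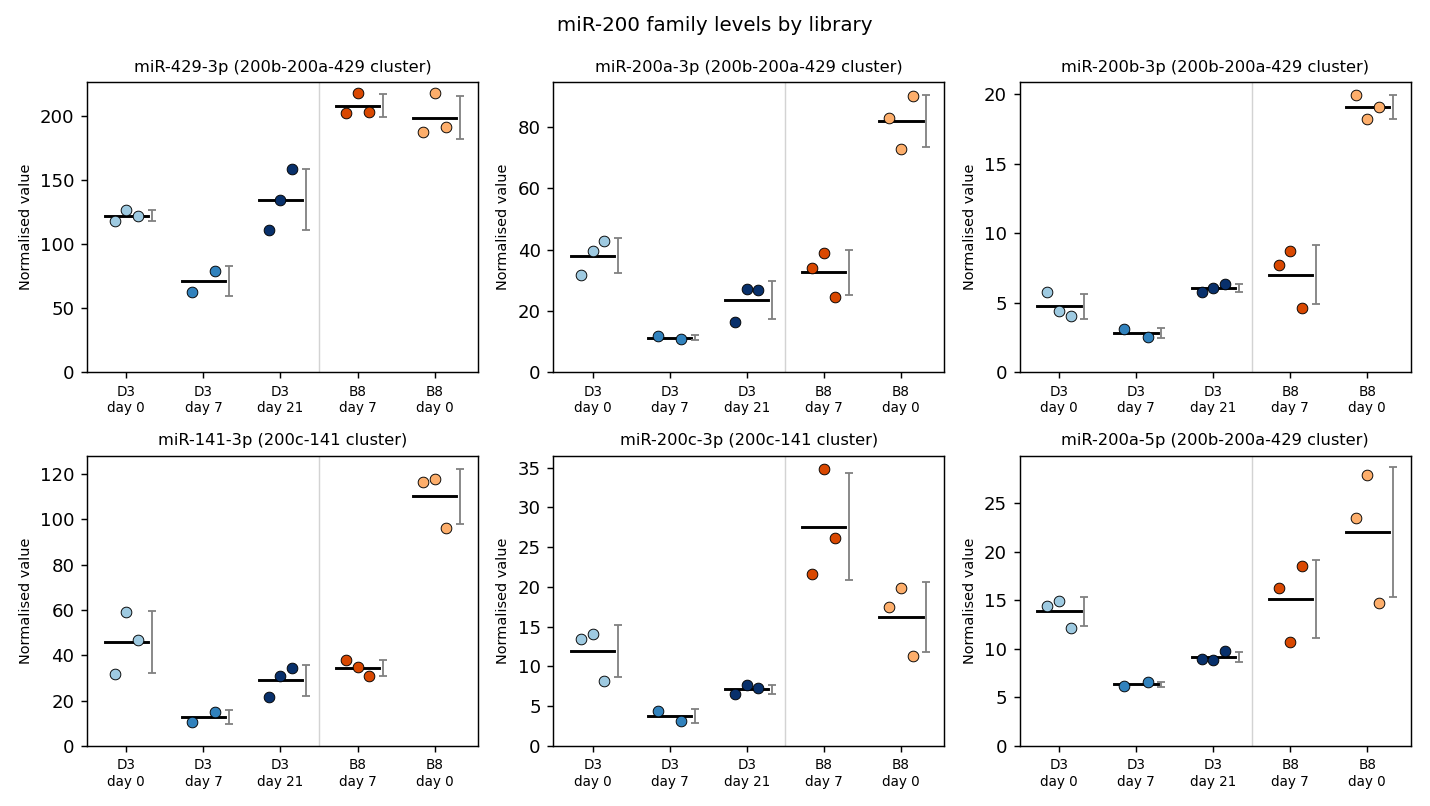
Normalised values (y axes, linear, each from 0, median scaled) of the 5 3p arms and miR-200a-5p in each library (points) by line and day (x axes), with group means (lines) and SD (bars at the side). miR-429-3p lies higher in all 6 B8 libraries than in the D3 libraries, miR-141-3p, miR-200a-3p and miR-200b-3p are highest in B8 at day 0, and miR-200c-3p is highest in B8 at day 7, with a mean of 27.6.

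Between day 7 and day 0 of D3, members of both clusters and both seeds were lower at day 7. Of the 8 members tested, 6 fell (limma, adjusted p below 0.05 over all 521 miRNAs tested), while 26.9% of all miRNAs tested were lower. The median log2 difference was -1.48 over the 8 members and 0.27 over all miRNAs. miR-141-3p averaged 12.8 ± 3.20 at day 7 and 45.8 ± 13.7 at day 0, a log2 difference of -1.79 ± 0.29 (SE, limma adjusted p = 4.4e-05). miR-200a-3p averaged 11.3 ± 0.680 at day 7 and 38.0 ± 5.66 at day 0, a log2 difference of -1.71 ± 0.28 (limma adjusted p = 5.0e-05). Both members with the miR-141 seed were thus about as far apart between the days, and neither had overlapping libraries, as held for 31.7% of all miRNAs in this direction. miR-200c-3p fell by 1.57 on the log2 scale (SE 0.36, limma adjusted p = 0.0013) and miR-429-3p by 0.79 (SE 0.19, limma adjusted p = 0.0014), with 3.72 ± 0.853 against 11.9 ± 3.27 for miR-200c-3p and 70.97 ± 11.6 against 122 ± 4.34 for miR-429-3p. The 5p arms miR-141-5p and miR-200a-5p also fell, with log2 differences of -3.17 (SE 0.62) and -1.08 (SE 0.34), and the size for miR-141-5p depends on the pseudocount because 1 day 7 library is at 0. miR-200b-3p did not pass the test, at a log2 difference of -0.68 with a 95% interval of -1.46 to 0.11, and neither did miR-200b-5p at -1.39. miR-200b-3p did pass as lower with a prior without trend (limma adjusted p = 0.0455) and with equal column totals (log2 difference -1.94, limma adjusted p = 0.00050). With equal column totals miR-200b-5p passed as lower too, at -2.19 (limma adjusted p = 0.022). The direction rests on the scaling: with values as deposited, whose median over all miRNAs is 1.98 higher on the log2 scale in this comparison, 3 members were higher at day 7 (miR-429-3p at 1.50, miR-200b-3p at 1.39 and miR-200a-5p at 1.13), and miR-141-5p was lower at -1.49, where 70.4% of all miRNAs were higher and 6.91% lower. Without D3 day 7 replicate 2, miR-200a-5p no longer passed (limma adjusted p = 0.063), and without D3 day 7 replicate 3, miR-200b-5p did (0.0091).

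At day 21 of D3 the members that passed the test as lower than at day 0 were miR-200a-3p, miR-141-3p and miR-141-5p. Relative to day 0, 3 of 8 members fell, against 25% of all miRNAs tested, and the medians were -0.66 over the members and 0.43 over all miRNAs. miR-200a-3p averaged 23.5 ± 6.13 at day 21 and 38.0 ± 5.66 at day 0, a log2 difference of -0.71 ± 0.25 (SE, limma adjusted p = 0.020). miR-141-3p averaged 28.9 ± 6.68 at day 21 and 45.8 ± 13.7 at day 0, a log2 difference of -0.64 ± 0.26 (limma adjusted p = 0.039). miR-141-5p averaged 0.664 ± 0.214 at day 21 and 6.01 ± 0.214 at day 0, and fell by 2.68 on the log2 scale (SE 0.55, limma adjusted p = 0.00043). Its values rest on 2, 3 and 4 reads at day 21 and 6, 7 and 3 at day 0. The mean floors are 0.672 and 3.87, so the small SDs understate the uncertainty. As deposited miR-141-5p was at -1.27 and was not called (limma adjusted p = 0.054). Differences of nearly the same size as those of miR-200a-3p and miR-141-3p did not pass. miR-200c-3p was at -0.68 (95% interval -1.36 to 0.01), and miR-200a-5p at -0.57 (-1.21 to 0.07), with 9.18 ± 0.495 at day 21 and 13.9 ± 1.47 at day 0. For both, all day 21 libraries lay below those of day 0, as held for 27.3% of all miRNAs, whereas the libraries of miR-141-3p overlapped. The calls therefore do not divide the family by seed. miR-429-3p at 0.13 (-0.23 to 0.48), miR-200b-3p at 0.34 (-0.36 to 1.05) and miR-200b-5p at -0.78 (-2.32 to 0.76) did not pass either. As deposited, 5 members were higher at day 21 and none was lower (1 at an unadjusted p under 0.05), miR-141-3p at 0.90 and miR-200a-3p at 0.84 among them, where 65.3% of all miRNAs were higher and 10.2% lower, with a median over all miRNAs 1.26 higher on the log2 scale than after median scaling. The call of miR-141-3p was lost with no filter (limma adjusted p = 0.0605), with a prior without trend (0.0586) and with the compared groups alone (0.0949). By contrast, miR-200c-3p passed as lower with edgeR (adjusted p = 0.040) and miR-200a-5p with the compared groups alone (limma adjusted p = 0.0479). Both also passed as lower with equal column totals (limma adjusted p = 0.0120 and 0.0105) and with totals equalised outside miR-10a and miR-10b (0.0359 and 0.0357). Single libraries also decided calls: miR-141-3p was lost without D3 day 21 replicate 1 (limma adjusted p = 0.179) or 2 (0.0567) or D3 day 0 replicate 2 (0.180) or 3 (0.0861), miR-200a-3p without D3 day 21 replicate 1 (0.121) or D3 day 0 replicate 2 (0.0533) or 3 (0.0676), and miR-200c-3p passed without D3 day 0 replicate 3 (0.0260).

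At day 21 of D3 part of the family was above its day 7 level. Relative to day 7, 3 of 8 members rose at day 21, against 16.1% of all miRNAs tested, with medians of 0.90 over the members and 0.02 over all miRNAs. miR-429-3p averaged 134.9 ± 23.6 at day 21 and 70.97 ± 11.6 at day 7 (log2 difference 0.92 ± 0.19 SE, limma adjusted p = 0.0017). miR-141-3p was 1.15 ± 0.29 higher on the log2 scale (limma adjusted p = 0.0071) and miR-200a-3p 1.01 ± 0.28 higher (0.014). miR-200b-3p at 1.02 (limma adjusted p = 0.053) and miR-200c-3p at 0.89 (0.083) had the same sign and did not pass. The result of miR-200b-3p rests on the settings, since it passed as higher with equal column totals (limma adjusted p = 0.00095), TMM (0.034), a pseudocount of 10 per 1000000 (0.048), no filter (0.044), the filter at 50 per 1000000 (0.030), the compared groups alone (0.018), a prior with no trend (0.018) and edgeR (adjusted p = 0.0050). miR-200c-3p passed with 4 of these, equal column totals (limma adjusted p = 0.00071), the filter at 50 per 1000000 (0.0496), the compared groups alone (0.034) and edgeR (adjusted p = 0.014). As deposited no member passed in either direction by limma, also at an unadjusted p under 0.05. edgeR used another scale, recovered reads with TMM, and called 5 as higher, against 26.9% of all miRNAs by the same test. These results therefore differ in scaling as well as in test. The deposited differences were 0.19 for miR-429-3p and 0.43 for miR-141-3p on the log2 scale, where 8.06% of all miRNAs were higher and 31.5% lower. miR-200a-3p was lost without any 1 of D3 day 21 replicates 2 (limma adjusted p = 0.0549) and 3 (0.0533) or D3 day 7 replicates 2 (0.0628) and 3 (0.0992), and with totals equalised outside miR-10a and miR-10b (0.0768), and miR-141-3p without D3 day 7 replicate 2 (0.120).

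In B8 the day 7 and day 0 libraries differed in some members and not detectably in others. Of 8 members 3 fell, against 25.7% of all miRNAs tested, and none rose, against 26.9%, though 1 was higher at an unadjusted p under 0.05 and by edgeR (miR-200c-3p), where edgeR called 27.4% of all miRNAs higher. The members had a median log2 difference of -0.82, against -0.06 over all miRNAs. miR-141-3p averaged 34.5 ± 3.54 at day 7 and 110.2 ± 12.2 at day 0, a log2 difference of -1.66 ± 0.26 (SE, limma adjusted p = 3.8e-05). miR-200b-3p averaged 7.02 ± 2.14 at day 7 and 19.1 ± 0.877 at day 0, a log2 difference of -1.45 ± 0.33 (limma adjusted p = 0.0015). miR-200a-3p averaged 32.5 ± 7.24 at day 7 and 82.0 ± 8.62 at day 0, a log2 difference of -1.35 ± 0.25 (limma adjusted p = 0.00023). These 3 members cover both clusters and both seeds, and none had overlapping libraries between the days, as held for 26.7% of all miRNAs in this direction. miR-429-3p averaged 208 ± 9.07 at day 7 and 199 ± 16.8 at day 0, a log2 difference of 0.07 with a 95% interval of -0.29 to 0.42 (limma adjusted p = 0.76). miR-200c-3p averaged 27.6 ± 6.72 at day 7 and 16.2 ± 4.43 at day 0, a log2 difference of 0.77 with an interval of 0.08 to 1.45 that did not pass the adjusted threshold (limma adjusted p = 0.057), although all 3 day 7 libraries lay above those of day 0, as in 28.8% of all miRNAs. Here the deposited scale gave the same 3 calls, at log2 differences of -1.89, -1.64 and -1.57, against 28% of all miRNAs, and -0.16 for miR-429-3p. With equal column totals miR-429-3p was lower as well, at -0.47 (limma adjusted p = 0.042), and 6 members were called lower, against 35.7% of all miRNAs. miR-200c-3p passed as higher with totals equalised outside miR-10a and miR-10b (limma adjusted p = 0.013), a pseudocount of 10 per 1000000 (0.037), the filter at 50 per 1000000 (0.041), a prior without trend (0.0451), the replicate block (0.0454) and edgeR (adjusted p = 0.039). It also passed without B8 day 7 replicate 1 (limma adjusted p = 0.044) or B8 day 0 replicate 2 (0.049), in a range of 0.013 to 0.56 over all 18 alternatives, and miR-200a-5p passed as lower without B8 day 0 replicate 3 (0.0489).

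The change from day 0 to day 7 was then compared between the lines as an interaction. Of the 8 members 3 changed more to the lower side in D3 than in B8, against 12.5% of all miRNAs tested. They were miR-200c-3p at a log2 difference of changes of -2.33 ± 0.49 (SE, limma adjusted p = 0.0013), miR-429-3p at -0.86 ± 0.25 (0.013) and miR-141-5p at -2.39 ± 0.83 (0.033). miR-141-3p and miR-200a-3p, which fell in both lines, were at -0.13 (95% interval -0.95 to 0.69) and -0.37 (-1.16 to 0.42), and miR-200b-3p was at 0.77 (-0.28 to 1.82). As deposited, miR-429-3p was at 1.66 and was called in the other direction, and 4 further members were called higher in D3, against 71.8% of all miRNAs, while miR-200c-3p was at 0.06 and was not called. miR-429-3p was lost without D3 day 7 replicate 2 (limma adjusted p = 0.0962), and miR-141-5p without any 1 of 5 libraries, D3 day 7 replicate 2 (0.273), D3 day 0 replicate 2 (0.0570), B8 day 7 replicate 3 (0.0706) and B8 day 0 replicates 1 (0.0836) and 3 (0.0502). With all libraries kept, miR-141-5p was also lost with a pseudocount of 0.2 per 1000000 (limma adjusted p = 0.0534), no filter (0.0623), the compared groups alone (0.0531) and edgeR (adjusted p = 0.0620).

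At the same stage, some members had lower median-scaled levels in D3 than in B8. At day 0, 4 of 8 members were lower in D3, against 15.7% of all miRNAs tested, with medians of -0.66 over the members and -0.13 over all miRNAs. miR-200b-3p averaged 4.74 ± 0.900 in D3 and 19.1 ± 0.877 in B8, a log2 difference of -1.95 ± 0.33 (SE, limma adjusted p = 0.00026). Its D3 values rest on 6, 5 and 2 reads, near the mean floor of 3.87, so the small SD understates their uncertainty. Replicate 3, at 4.06, lies below its own floor of 6.10. miR-141-3p was lower in D3 by a log2 difference of -1.30 ± 0.26 (limma adjusted p = 0.0011), miR-200a-3p by -1.11 ± 0.25 (0.0032) and miR-429-3p by -0.70 ± 0.17 (0.0049). miR-200c-3p, at 11.9 ± 3.27 in D3 and 16.2 ± 4.43 in B8, was not called (-0.44, 95% interval -1.12 to 0.25), and neither were the 5p arms, of which miR-141-5p had the higher mean in D3, at 6.01 against 5.22 in B8. The direction of the 4 calls was the same as deposited, where 6 members were lower, against 46.1% of all miRNAs. With equal column totals the call of miR-429-3p was lost, at a log2 difference of -0.52 (limma adjusted p = 0.059).

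At day 7, 7 of 8 members were lower in D3 than in B8, against 16.3% of all miRNAs tested, and the medians were -1.45 over the members and 0.39 over all miRNAs. The exception was miR-200b-5p at -0.87. miR-200c-3p averaged 3.72 ± 0.853 in D3 and 27.6 ± 6.72 in B8, a log2 difference of -2.77 ± 0.36 (SE, limma adjusted p = 1.2e-05). miR-429-3p averaged 70.97 ± 11.6 in D3 and 208 ± 9.07 in B8, a log2 difference of -1.56 ± 0.19 (limma adjusted p = 4.2e-06). The remaining 3p arms were lower in D3 by -1.48 (miR-200a-3p), -1.43 (miR-141-3p) and -1.18 (miR-200b-3p) on the log2 scale. As deposited only miR-200c-3p was called, at -1.36 (limma adjusted p = 0.0061), against 9.21% of all miRNAs, with miR-429-3p at -0.09 and the signs of miR-141-3p (0.02), miR-200a-5p (0.25) and miR-200b-3p (0.19) turned. Without D3 day 7 replicate 2 or 3, miR-200a-5p (limma adjusted p = 0.0747 and 0.0549) and miR-200b-3p (0.0597 and 0.120) were lost, as was miR-141-5p without replicate 2 (0.256), while miR-200b-5p passed without replicate 3 (0.0475). With the compared groups alone miR-200a-5p (limma adjusted p = 0.0702), miR-200b-3p (0.123) and miR-141-5p (0.102) were lost.

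**Figure D2:**
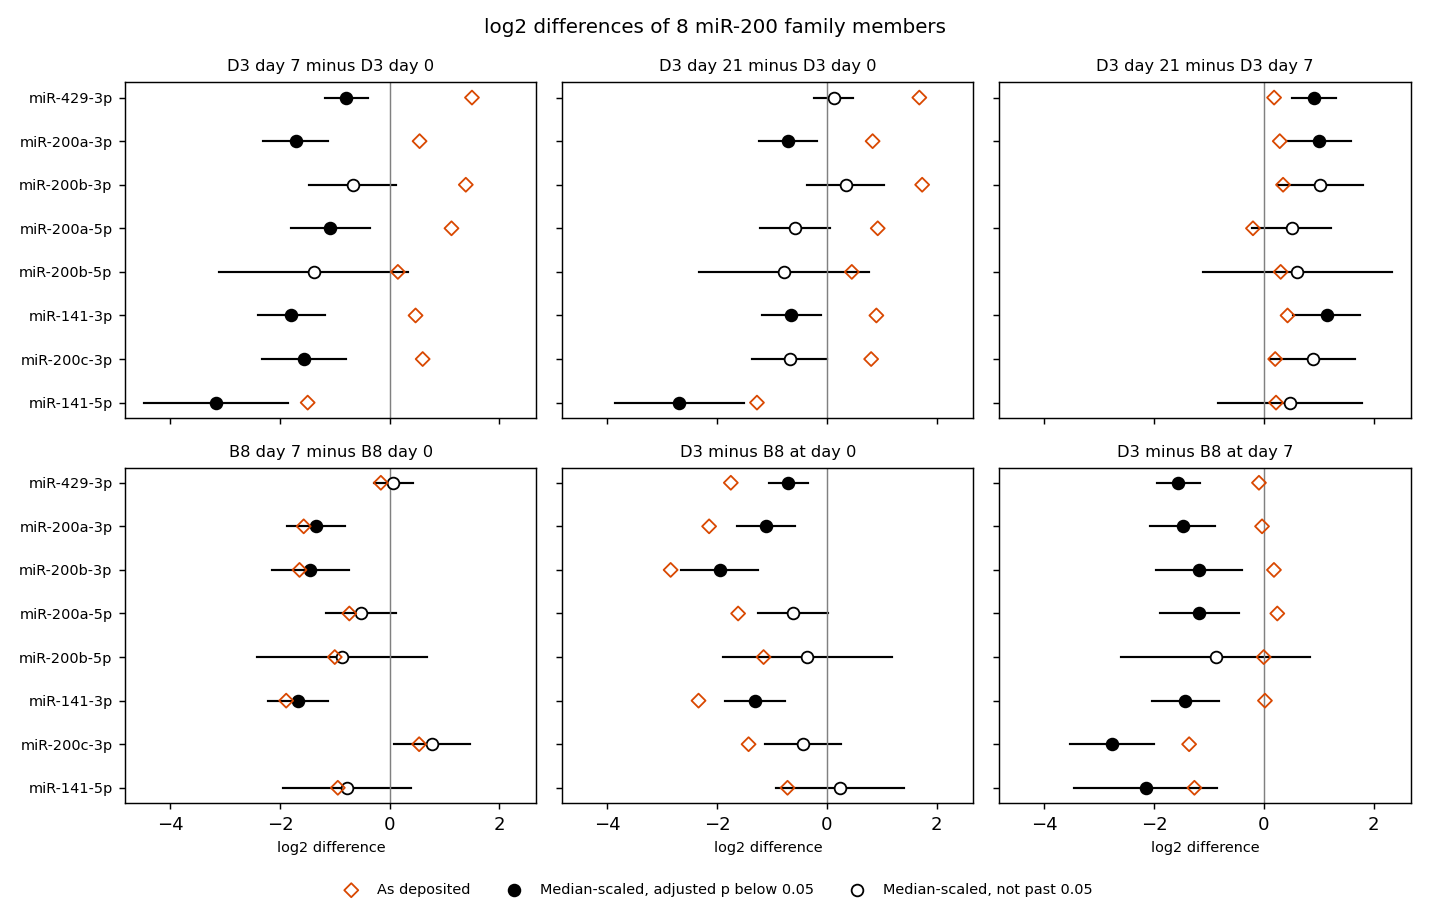
log2 differences (x axes) of the 8 members tested (rows) in 6 comparisons of line and day, with median-scaled values as circles, filled where limma's adjusted p was below 0.05, with 95% intervals, and values as deposited as open diamonds. In B8 the diamonds lie near the circles, whereas for D3 at day 7 minus day 0 they lie on the other side of 0 for 7 of the 8 members, the exception being miR-141-5p at -1.49.

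Because all members of a library share its scaling factor, the make-up of the family within a library does not depend on that factor. miR-429-3p made up 55.1%, 69.7% and 67.4% of the 3p arms in D3 at days 0, 7 and 21, and 67.3% in B8 at day 7 and 46.6% at day 0. miR-200a-3p and miR-141-3p, the pair with the seed AACACUG, together made up 37.3 ± 4.99%, 23.7 ± 0.528% and 25.9 ± 2.30% in D3 at days 0, 7 and 21, and 21.6 ± 2.28% in B8 at day 7 and 45.1 ± 2.20% at day 0. The libraries ran from 23.3 to 24.1% in D3 at day 7 and from 31.6 to 40.4% at day 0, and from 19.1 to 23.7% in B8 at day 7 and from 42.7 to 47.0% at day 0. In both lines the day 7 libraries thus lay below those of day 0, and the D3 day 21 libraries (23.5 to 28.1%) also lay below D3 day 0. The split by cluster moved in the same direction, with miR-200c-3p and miR-141-3p together at 25.7 ± 3.86%, 16.2 ± 0.252% and 17.9 ± 0.636% in D3 at days 0, 7 and 21, and 20.0 ± 0.649% in B8 at day 7 and 29.6 ± 2.83% at day 0. These shares were summarised after the members' values were known and were not tested. As a level, the 5 3p arms summed to 223 ± 21.6, 102 ± 12.9 and 200.5 ± 36.4 in D3 at days 0, 7 and 21, and to 309.8 ± 23.7 in B8 at day 7 and 427 ± 19.7 at day 0 (SD, n = 3, and 2 for D3 day 7).

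**Figure D3:**
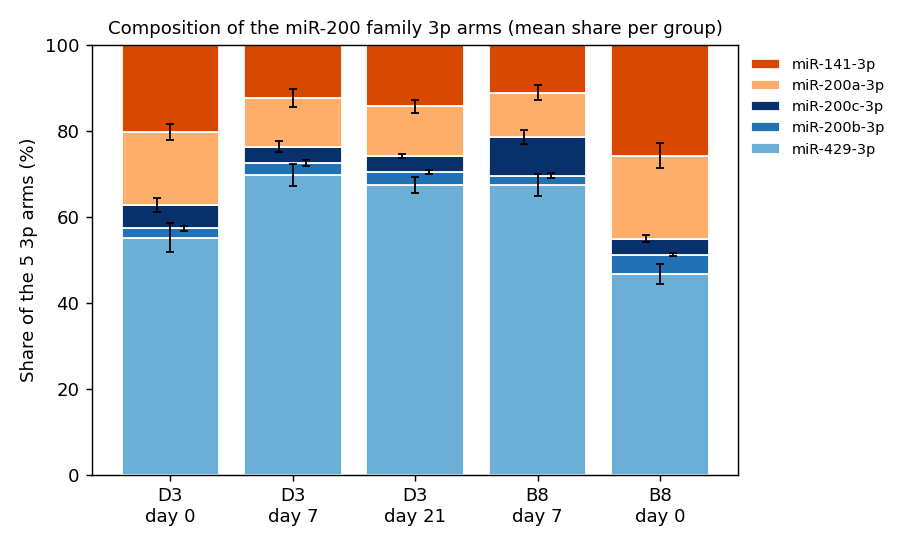
Mean share of each member in the sum of the 5 3p arms (y axis, %) by line and day (x axis), stacked by seed, with SD bars at the top of each segment below the last. The miR-141-3p and miR-200a-3p segments together take 37.3% in D3 at day 0 and 45.1% in B8 at day 0, and 21.6 to 25.9% in the other groups.

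The clusters were compared through pairs that share a seed and differ in cluster. Each such ratio within a library was tested by exact permutation within lines or within days, 2-sided, in 4 tests over 2 pairs, with p-values adjusted over the 4. The ratio of miR-141-3p to miR-200a-3p was 1 to 1.49 in D3 at day 0, 0.895 to 1.39 at day 7 and 1.13 to 1.30 at day 21. In B8 it was 0.897 to 1.25 at day 7, against 1.07 to 1.62 at day 0. Every group overlapped every other, and the mean log2 difference was -0.20 for day 7 minus day 0 within lines (exact permutation p = 0.315, adjusted 0.63) and -0.07 for D3 minus B8 within days (exact permutation p = 0.70, adjusted 0.93). These tests do not show that the ratios are equal. The ratios of both pairs also depend on how reads were split within each close pair, which is uncertain.

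The ratio of miR-200c-3p to miR-200b-3p differed between groups in opposite directions. It was 2 to 3.2 in D3 at day 0, 1.22 to 1.40 at day 7 and 1.13 to 1.26 at day 21. In B8 it was 2.80 to 5.67 at day 7, against 0.591 to 1.09 at day 0. All D3 day 7 libraries thus lay below D3 day 0, with a log2 difference of -0.91, and all B8 day 7 libraries lay above B8 day 0, with a log2 difference of 2.27. Each of these has an exact permutation p of 0.1, the smallest that 3 against 2 or 3 against 3 libraries allow. Averaged over the lines the day 7 minus day 0 difference was 0.68 (exact permutation p = 0.255, adjusted 0.63), and averaged over days the D3 minus B8 difference was -0.02 (exact permutation p = 0.97, adjusted 0.97), where 0.005 was the smallest p that the 200 permutations can give. That -0.02 joins 1.58 at day 0 and -1.61 at day 7, each with an exact permutation p of 0.1, again the smallest possible. Both averages join opposite signs, so these tests cannot detect differences that run in opposite directions. The day 0 values of D3 rest on 34 reads of miR-200c-3p and 13 of miR-200b-3p, and those of B8 at day 7 on 97 and 26.

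Within a cluster, members with different seeds also did not keep a fixed ratio across all groups, though some ratios overlapped between the days of the same line. The ratios below were chosen after the values were seen and are given with no test. miR-429-3p was 2.86 to 3.73 times miR-200a-3p in D3 at day 0, 5.34 to 7.34 times at day 7 and 4.96 to 6.76 times at day 21, and 5.62 to 8.25 times in B8 at day 7 and 2.13 to 2.99 times at day 0. In both lines this ratio was higher in every day 7 library than in every day 0 library. miR-200c-3p relative to miR-141-3p was 0.174 to 0.424 in D3 at day 0, 0.208 to 0.412 at day 7 and 0.211 to 0.302 at day 21, groups that all overlap. In B8 this ratio was 0.571 to 1 at day 7, against 0.117 to 0.168 at day 0. The pair with the same seed on chromosome 4, miR-429-3p over miR-200b-3p, had mean ratios of 26.4, 25.7 and 22.2 in D3 at days 0, 7 and 21, against 31.8 in B8 at day 7 and 10.5 at day 0. The libraries ran from 25.1 to 44.0 in B8 at day 7 and from 9.38 to 12.0 at day 0. Ratios to miR-200b-3p rest on 6, 5 and 2 of its reads in D3 at day 0 and 10, 13 and 3 in B8 at day 7. The ratio of 44.0 is from the library with 3.

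**Figure D4:**
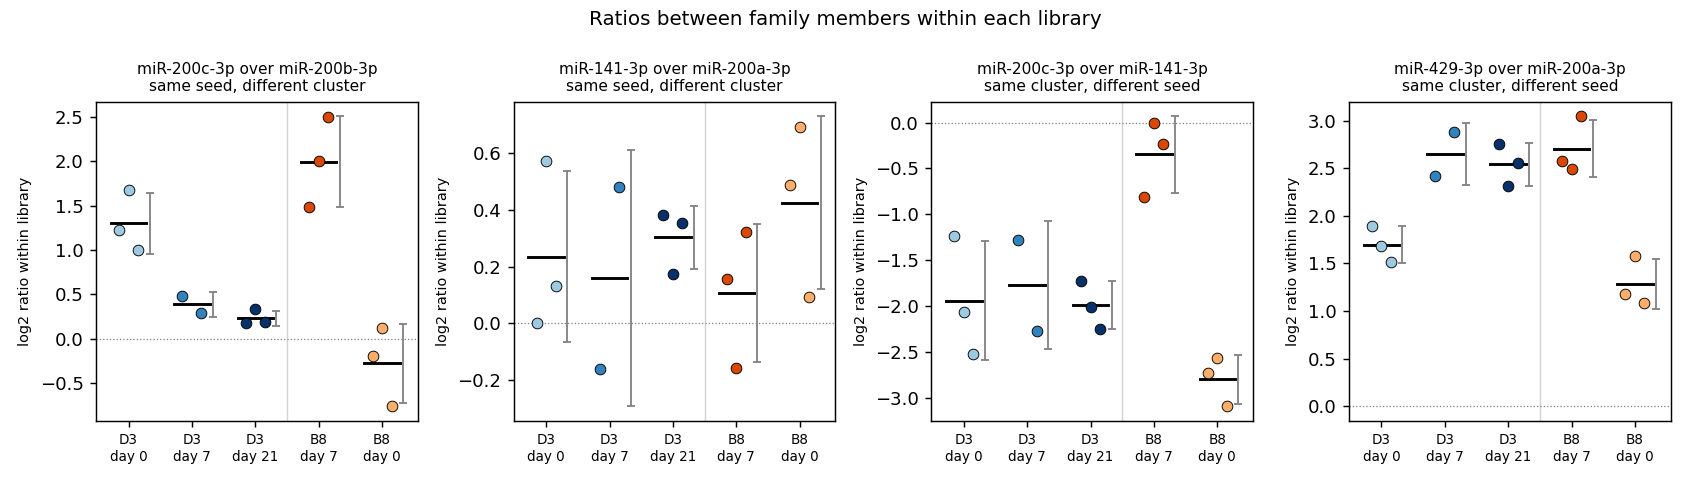
log2 ratios of 4 pairs of members within each library (y axes) by line and day (x axes), with group means (lines) and SD (bars at the side). The pair miR-141-3p and miR-200a-3p overlaps in all groups, whereas miR-200c-3p over miR-200b-3p has means of 1.996 in B8 at day 7 and -0.28 in B8 at day 0, and 1.30, 0.39 and 0.23 in D3 at days 0, 7 and 21.

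The likeness of profiles was described over the 5 group means, as the root mean square difference between log2 profiles each centred on its own mean. The miRNA most like miR-141-3p among all 521 was miR-200a-3p and the reverse also held, at 0.11, where the median over all miRNAs was 1.34 for miR-141-3p. The 5 most like miR-200b-3p were miR-200a-3p (0.39), miR-141-3p (0.39), miR-200a-5p (0.46), miR-31-5p (0.49) and miR-466o-5p (0.50), with a median over all of 1.31. The 5 most like miR-200c-3p held no family member: miR-669e-5p (0.17), miR-196a-5p (0.25), miR-669f-3p (0.25), miR-467d-5p (0.27) and miR-467d-3p (0.31), with a median of 1.42. miR-200c-3p was at 0.79 from its cluster partner miR-141-3p. Its nearest family member was miR-429-3p, which has the same seed in the other cluster, at 0.47. miR-200b-3p, also of that seed, was at 0.79. These distances have no test, all profiles share the same 14 libraries and their scaling factors, and 5 points separate profiles only coarsely. miR-141-3p and miR-200a-3p differ at 2 of 22 bases, and how reads that match both were counted is not known. Their likeness therefore depends on a split of reads that is uncertain.

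Other epithelial miRNAs (miR-203, miR-205, miR-31 and miR-184, known from skin and other epithelia) did not move as a block with the family. In D3 at day 7 relative to day 0, 1 of 5 tested was higher, against 36.1% of all miRNAs, and 1 lower, against 26.9%. In B8 2 of the 5 were higher, against 26.9% of all miRNAs, and 1 was lower, against 25.7%. miR-31-5p fell in both lines, by 1.45 on the log2 scale in D3 and 2.36 in B8, and averaged 31.9 in D3 at day 7 and 88.2 at day 0, against 46.6 in B8 at day 7 and 236 at day 0. miR-203-3p rose in both, by 1.47 in D3 and 1.58 in B8 on the log2 scale. miR-205-5p, the most abundant of them, was at -0.40 in D3 and -0.36 in B8 and did not pass. As deposited all 5 were called higher in D3 at day 7, against 70.4% of all miRNAs, miR-31-5p at 0.84 and miR-205-5p at 1.89 on the log2 scale, so these directions in D3 also rest on the scaling. In B8 2 were higher and 2 lower as deposited.

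Markers of other cell types moved in the same comparisons, and their part in the family's levels was not tested. The 9 miRNAs of mesenchyme and smooth muscle (miR-199a, miR-199b, miR-214, miR-143 and miR-145a) were higher in D3 at day 7 than at day 0 in 9 of 9, also as deposited, against 36.1% of all miRNAs (70.4% as deposited), and their summed level was 246, 3637 and 9415 in D3 at days 0, 7 and 21. In B8 2 of the 9 rose, against 26.9% of all miRNAs, and 3 fell, against 25.7%, at day 7 relative to day 0 (1 and 3 as deposited, against 21.9% and 28%), with sums of 1589 at day 7 and 2263 at day 0. The ranges of that sum were 221 to 288.5, 3330 to 3944 and 7578 to 11343 in D3 at days 0, 7 and 21, and 1037 to 2510 in B8 at day 7 and 2147 to 2411 at day 0. At day 0, 8 of the 9 were lower in D3 than in B8, against 15.7% of all miRNAs, and 9 as deposited, against 46.1%. Neural markers summed to 119.8, 4364 and 1108 in D3 at days 0, 7 and 21, and to 2329 in B8 at day 7 and 136 at day 0. Of the ESC markers 18 of 19 tested fell in D3 at day 7 relative to day 0, against 26.9% of all miRNAs (12 as deposited, against 6.91%, with 1 higher). In B8 16 of 19 fell, against 25.7% (17 as deposited, against 28%). Not all stayed low: in D3 at day 21 relative to day 0, 13 of the 19 were lower, against 25% of all miRNAs, and 3 were higher. As deposited 12 were lower there, against 10.2%, and 4 higher, against 65.3%. The summed levels of all marker lists are on the median-scaled values only. Markers of endoderm, whose derivatives include epithelia, summed to 119, 128 and 425 in D3 at days 0, 7 and 21, and to 137 in B8 at day 7 and 94.8 at day 0. In D3 at day 7 relative to day 0, 1 of 5 tested was higher, against 36.1% of all miRNAs, and none lower, against 26.9% (4 higher as deposited, against 70.4%). In B8 2 of the 5 were higher, against 26.9%, and 1 lower, against 25.7%. There miR-375-3p was at 2.19 and miR-192-5p at -0.60 on the log2 scale. Muscle markers summed to 0.934, 6.91 and 302.9 in D3 at days 0, 7 and 21, with miR-1a-3p at 0 in all 3 day 0 libraries, and to 4.52 in B8 at day 7 and 1.43 at day 0. Blood and endothelial markers summed to 134, 642 and 446 in D3, and to 90.1 in B8 at day 7 and 463.7 at day 0. These sums join opposite directions: in D3 at day 7, 2 of 5 tested were higher, against 36.1% of all miRNAs, and 2 lower, against 26.9%. miR-126a-5p averaged 81.6 in D3 at day 0 and 506 at day 7, and miR-142a-5p 17.7 and 0.902. In B8 3 of the 5 were lower at day 7, against 25.7%, and none higher, against 26.9%. There miR-142a-5p averaged 22.2 at day 7 and 329 at day 0.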

How the data were processed

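Small RNA libraries of D3 and B8 ESCs were analysed from 1 table of 1033 mature miRNAs. The authors deposited them as signal, read numbers over a factor per library, and the table's title names TMM. Per the submitters' processing notes CASAVA, FastQC, Bowtie, Partek and mm10 were used, without versions or settings, and column names add cutadapt and a length step. Whole reads were recovered, since every value worth 1000 reads or fewer was a whole multiple, within 0.01 of a read, of 1 value per library. Deposited column totals ran from 46965.1 to 830402, a range of 17.7-fold, against 2.69-fold with TMM over the rows, so values were rescaled by the median of ratios, taken over the 319 miRNAs detected in each library, which left 2.87-fold, and the deposited scale is given beside the tests of members. Of 17 labelled samples 14 were used. The 3 samples of B8 at day 21 and 1 unnamed column were not analysed here.

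A mean of 5 or more per 1000000 was required, which kept 521 miRNAs. log2 of the normalised value plus 0.338 (2 per 1000000) entered limma 3.58.1 (R 4.3.3) with a mean for each of 5 groups, 9 residual degrees of freedom and a prior with trend, and p-values were adjusted over the 521 by Benjamini-Hochberg with a threshold of 0.05. Fold changes on this scale understate those of low miRNAs. edgeR 4.0.16 on recovered reads was an alternative, with other scalings, pseudocounts, filters and left-out replicates. Code was tested on simulated data. The named miRNAs are all family rows, the 3 marker miRNAs of highest mean level from each list at most and the 5 nearest profiles to miR-200b-3p and miR-200c-3p. Members, lists and tests were chosen with earlier results of these data known. Of 1033 rows 873 matched a RefSeq mature miRNA by name. Floors and intervals cover counting error only, since PCR copies are not independent molecules.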

Additional observations from a re-analysis of the deposited data

Results flagged for a closer look

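The change from day 0 to day 7 differed between the lines for 3 members by the test of the difference itself, D3 minus B8 (limma, adjusted p below 0.05). All 3 were on the lower side in D3, against 12.5% of all miRNAs tested. The differences were -0.86 for miR-429-3p, -2.33 for miR-200c-3p and -2.39 for miR-141-5p on the log2 scale. With values as deposited they were 1.66, 0.06 and -0.55 in the same order. The ratio of miR-200c-3p to miR-200b-3p was lower in every D3 day 7 library than in every D3 day 0 library and higher in every B8 day 7 library than in every B8 day 0 library, so that its log2 change in D3 minus that in B8 was -3.19. This difference between the lines was not tested.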

How the results depend on the processing

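Library scaling changed most. Counts of called members in this section show how calls of the same members moved between settings. Except where a share is given, they are not set against all miRNAs. With values as deposited, directions reversed in D3 at day 7 minus day 0 for miR-429-3p (1.50), miR-141-3p (0.47), miR-200a-3p (0.54), miR-200c-3p (0.60), miR-200a-5p (1.13), miR-200b-3p (1.39) and miR-200b-5p (0.15). Of the 4 members called there, 3 were higher (miR-429-3p, miR-200a-5p and miR-200b-3p), against 70.4% of all miRNAs. The other, miR-141-5p, did not reverse and was lower, against 6.91%. In D3 at day 21 minus day 0 they reversed for miR-141-3p (0.90), miR-200a-3p (0.84), miR-200c-3p (0.81), miR-200a-5p (0.93) and miR-200b-5p (0.46). The 5 called there as higher, against 65.3% of all miRNAs, were miR-141-3p, miR-200a-3p, miR-200a-5p, miR-429-3p and miR-200b-3p. Of these, miR-429-3p and miR-200b-3p did not reverse. For day 21 minus day 7 miR-200a-5p (-0.20) reversed and 0 were called. Also reversed were miR-429-3p in B8 (-0.16), miR-141-5p in D3 minus B8 at day 0 (-0.71), and miR-141-3p (0.022), miR-200a-5p (0.25) and miR-200b-3p (0.19) at day 7. There 1 member was called, miR-200c-3p, which did not reverse. In the difference between the lines' changes miR-429-3p (1.66), miR-141-3p (2.36), miR-200a-3p (2.11), miR-200c-3p (0.064), miR-200a-5p (1.86) and miR-200b-5p (1.15) reversed. The 5 called there as higher, against 71.8% of all miRNAs, were miR-429-3p, miR-141-3p, miR-200a-3p, miR-200a-5p and miR-200b-3p. Of these, miR-200b-3p (3.03) did not reverse. Equal column totals called 8 members in D3 at day 7 minus day 0, all lower, 5 at day 21 minus day 0 and 6 at day 21 minus day 7. They called 6 as lower in B8, against 35.7% of all miRNAs, and 5 in the difference. They also lost miR-429-3p in D3 minus B8 at day 0 (-0.52), and turned miR-429-3p to -0.23 in D3 at day 21 minus day 0 and -0.47 in B8. Equalising totals after leaving out miR-10a and miR-10b called 5 in D3 at day 21 minus day 0, with miR-429-3p at -0.026, and TMM put miR-429-3p in B8 at -0.027. For day 21 minus day 7 of D3, 5 members were called with the filter at 50 per 1000000, with the compared groups alone and with edgeR, and the compared groups alone called 4 for D3 minus B8 at day 7. edgeR put miR-200b-5p in the difference at 0.067.

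With 1 replicate left out, called members numbered 5 to 7 (D3 day 7 minus day 0), 1 to 3 (day 21 minus day 0), 1 to 3 (day 21 minus day 7), 3 to 4 (B8), 4 (D3 minus B8 at day 0), 4 to 7 (day 7) and 1 to 3 (difference). Directions reversed for miR-200b-5p in D3 day 7 minus day 0 (-2.93 to 0.16) and day 21 minus day 7 (-0.94 to 2.16), for miR-141-5p in D3 day 21 minus day 7 (-0.58 to 1.55), for miR-141-5p (-0.0041 to 0.46) and miR-200b-5p (-0.78 to 0.19) in D3 minus B8 at day 0, for miR-200b-5p at day 7 (-2.42 to 0.68), and for miR-141-3p (-0.38 to 0.12) and miR-200b-5p (-2.07 to 1.03) in the difference. The D3 minus B8 differences in log2 ratio, averaged over days, ran from -0.14 to 0.11 for miR-200c-3p over miR-200b-3p and from -0.23 to 0.091 for miR-141-3p over miR-200a-3p. The cause of these changes was not tested.

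Replicate numbers did not pair the libraries, with correlations of -0.08 to 0.10 over 15 pairs. With the replicate number as a block, 55 of 56 results on members kept their side of the threshold, with 6 members called in D3 at day 7 minus day 0, 4 in B8 and 7 for D3 minus B8 at day 7, and miR-200c-3p passed as higher in B8 (adjusted p = 0.045).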
